A study of Mus musculus with 6 samples.

Results

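Intermediate filament genes were compared between CD24- and CD24+ cells sorted from Mvt1, a mouse mammary carcinoma cell line of strain FVB/N. The 10 genes described are Krt5, Krt7, Krt8, Krt14, Krt18, Krt19, Vim, Nes, Lmna and Lmnb1. They were taken as the annotations spelled exactly so among 14770 gene annotations in the deposited read tables, and 7 of the 10 had enough reads to be tested, as did 11125 genes in all. Cells stained for surface CD24 were sorted once into CD24- and CD24+ cells as far as the methods say, and both groups grew as adherent cells in DMEM with fetal bovine serum and antibiotics. RNA came from 3 plates of each group, so the error given is the spread between plates. What goes with CD24 cannot be told apart from anything else that came to differ after the sort, and in bulk RNA fewer cells of a type cannot be told apart from less RNA per cell.

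Intermediate filaments are built from coiled-coil proteins that differ between cell types. Keratins are obligate pairs of a type II chain (Krt5, Krt7, Krt8) and a type I chain (Krt14, Krt18, Krt19); Krt8 with Krt18 is the pair of simple and luminal mammary epithelium, and Krt5 with Krt14 that of basal cells. Vimentin fills the cytoplasm of mesenchymal cells and of many cultured cells, nestin co-assembles with vimentin and marks progenitor and regenerating cells, and lamins line the inside of the nuclear envelope.

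Each library is a list of 47-nt read sequences with their counts, so the keratin and nestin results can be seen at single reads. The sequences shown are, for each gene, the most frequent coding read over all libraries of a member whose level the results turn on, in the sense of the mRNA. A read chosen so favours the group where its gene is higher, so these reads are examples only. The Krt8 and Krt18 reads lie in exon 5 of Krt8 (minus strand, chr15:101829257-101829303) and exon 3 of Krt18 (plus strand, chr15:101860316-101860362), and the Nes read in exon 4 of Nes (plus strand, chr3:87781116-87781162). Positions are on mm9 as deposited, and exons are those of GENCODE M21 transcripts that the read sequences match.
Krt8: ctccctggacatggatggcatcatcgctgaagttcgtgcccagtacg
Krt18: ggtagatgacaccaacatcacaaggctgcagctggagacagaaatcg
Nes: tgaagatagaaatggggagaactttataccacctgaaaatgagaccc
The Krt8 read was counted 111, 121 and 104 times in CD24- replicates 1, 2 and 3 and 37, 80 and 94 times in CD24+ replicates 1, 2 and 3. Scaled to the gene reads of each library, this was 11.7, 11.5 and 11.7 CPM (read counts scaled to a fixed total of gene reads) against 5.82, 4.52 and 4.92 CPM. The Krt18 read had 12.6, 17.4 and 11.8 CPM in CD24- cells and 3.15, 3.61 and 3.30 CPM in CD24+ cells. The Nes read was seen 0, 1 and 1 times in CD24- cells and 7, 9 and 6 times in CD24+ cells.

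The libraries held between 9046025 (CD24+ replicate 1) and 25692147 (CD24+ replicate 3) mapped reads, of which 71.8% to 74.3% carried a gene annotation. Cd24a, the gene of the sorted marker, had 12.1, 11.5 and 6.99 CPM in CD24- cells and 73.3, 85.5 and 72.5 CPM in CD24+ cells. Its log2 fold-change, CD24+ over CD24-, was 2.91 (standard error, SE, 0.17 and adjusted p = 3.94e-07, edgeR with Benjamini-Hochberg adjustment over all genes tested). Called genes are those with an adjusted p under 0.05 in this test, which were 46.1% of all genes tested, 23.8% higher and 22.3% lower in CD24+ cells. Of the 7 tested members 4 were called, Nes as higher and Krt8, Krt18 and Krt19 as lower, and the same 4 had groups that did not overlap, as had 57.3% of all genes. The median log2 fold-change was -0.27 over the 7 and 0.02 over all genes tested.

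**Figure D1:**
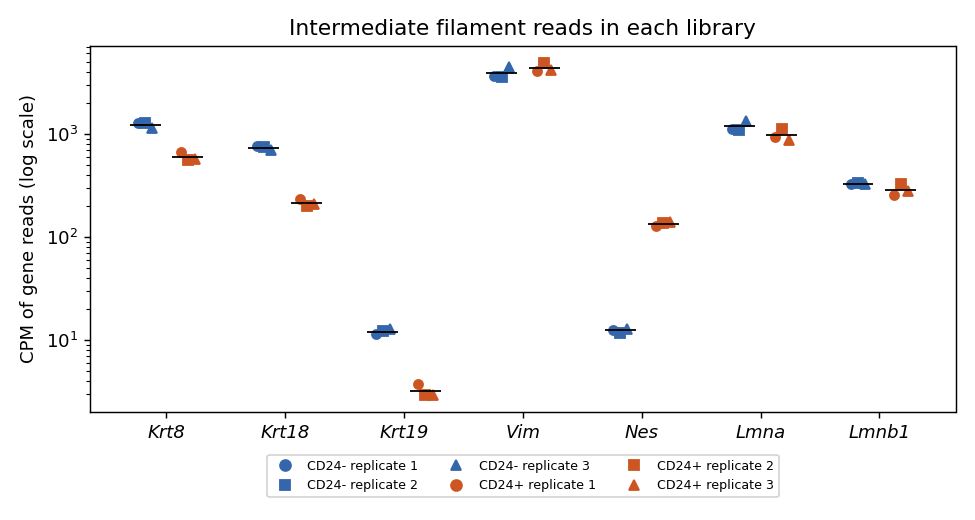
CPM of gene reads (log axis) of the 7 tested genes in each of the 6 libraries, with a horizontal line at the mean of each group. Krt8, Krt18 and Krt19 lie lower in all 3 CD24+ libraries and Nes lies higher, while the groups overlap for Vim, Lmna and Lmnb1.

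Krt8, Krt18 and Krt19 fell in CD24+ cells. Krt8, the type II chain, had 1262, 1284 and 1142 CPM in CD24- cells and 666, 555 and 567 CPM in CD24+ cells. All CD24+ libraries were below all CD24- libraries. The level was 2.06-fold lower in CD24+ cells (log2 fold-change -1.04 with SE 0.09 and adjusted p = 8.67e-06, edgeR), but was not called when each distinct sequence was counted once (-0.46, adjusted p = 0.0735, edgeR). That count is bounded by the number of possible read sequences, so it can shrink a difference in an abundant gene. Krt18, the type I partner of Krt8, had 761, 744 and 692 CPM in CD24- cells and 232, 200 and 207 CPM in CD24+ cells. Again the groups were apart, and the level was 3.44-fold lower in CD24+ cells (log2 fold-change -1.78 with SE 0.09 and adjusted p = 1.12e-07, edgeR), and the change was -0.88 (adjusted p = 0.00102, edgeR) when each distinct sequence was counted once. Reads of Krt8 spanned chr15:101827117-101834818 and those of Krt18 chr15:101858609-101862452 on mm9, so the genes of this pair lie close together on chromosome 15, on opposite strands. Exon 1 of Krt8 overlaps an antisense gene, Gm36026, from which its reads cannot be told apart without strand.

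Krt19, a type I keratin that lacks most of the tail found in other keratins, was far less abundant. It had 11.4, 12.1 and 12.8 CPM in CD24- cells and 3.78, 2.94 and 2.93 CPM in CD24+ cells, from 108 to 128 reads and from 24 to 56 reads per library. The CD24+ libraries were all lower, by 3.88-fold on average (log2 fold-change -1.96 with SE 0.18 and adjusted p = 8.33e-06, edgeR). In an estimate after the study's own, which adds a regularizer of 10 to the median coverage of the transcript (0 to 4 reads here), the change was -0.49 (adjusted p = 2.70e-04, limma). Its reads lay on chromosome 11, away from the Krt8 and Krt18 locus.

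The basal keratins and Krt7 were at or near the detection limit in both groups. Krt5 had no read in 5 libraries and 1 read in CD24+ replicate 3. Krt14 had no read in the CD24- libraries and 0, 1 and 2 reads in the CD24+ libraries. A count of 0 allows up to 3 reads, or 0.284 to 0.338 CPM in the CD24- libraries and 0.157 to 0.472 CPM in the CD24+ libraries, by counting error only. Krt7, a simple epithelial type II keratin, had 1, 1 and 0 reads in CD24- cells and 1, 0 and 7 reads in CD24+ cells. Only CD24+ replicate 3, the deepest library, was above its limit, at 0.367 CPM. None of these 3 genes passed the filter on low counts, and a difference between groups was not detectable at this depth.

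Part of the reads that match Krt8 was deposited under another name. Whether these come from Krt8 RNA or from a like sequence at the other place was not tested. Of the reads that match the Krt8 transcript exactly, 87.8% were annotated Krt8 and 12.2% (8277 reads) were annotated Nlrp4e, at chr7:24142047-24143450 on mm9. Nlrp4e is named for an NLR family gene, yet 99.2% of its 8340 reads match Krt8. An example is the most frequent coding read placed there, at chr7:24142682-24142728, whose first base lies in exon 2 of the Krt8 transcript. Whether reads placed there cross exon junctions of Krt8 was not looked up. The read was counted 50, 75 and 40 times in CD24- cells and 20, 44 and 42 times in CD24+ cells. Scaled to gene reads, this was 5.26, 7.11 and 4.51 CPM against 3.15, 2.48 and 2.20 CPM.
Krt8 sequence placed at Nlrp4e: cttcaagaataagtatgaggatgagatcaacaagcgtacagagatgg
Nlrp4e reads came to 13.7%, 14.2% and 13.8% of the Krt8 reads in CD24- cells and to 14.1%, 13.3% and 13.6% in CD24+ cells, a like share in every library. With these reads added, the Krt8 log2 fold-change was -1.05 (SE 0.10 and adjusted p = 9.48e-06, edgeR), a count chosen after seeing the data. For Krt18, Krt19, Vim, Nes, Lmna and Lmnb1, between 98.96% (Krt19) and 100% (Vim) of the matching reads carried the gene's own name. For Krt7 it was 4.05% (9 reads), and 92 matching reads had no annotation (7, 15 and 17 in CD24- cells and 9, 22 and 22 in CD24+ cells), while others lay under names such as Lama1 (20 reads), the LINE repeat L1MA9 (19 reads) and Galnt10 (16 reads). These were spread thinly over unlike names, and whether any come from Krt7 RNA was not tested.

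The fall of Krt8, Krt18 and Krt19 moved with other changes in cell type markers, whose part in the result was not tested. Of 18 luminal mammary markers, which include Krt7, Krt8, Krt18 and Krt19, 6 were tested. Of the 5 with at least 1 CPM in all libraries 4 were called lower, 3 of which are Krt8, Krt18 and Krt19 themselves, and 1 was called higher, where 43.9% of all such genes were called. Gata3, a luminal transcription factor, was lower besides the keratins (log2 fold-change -0.76), and Esr1 was higher (1.25), as was Cldn3 (2.47), which passed the filter through CD24+ cells alone. Other defining luminal genes were nearly unread in both groups: Cdh1 had at most 0.0565 CPM, Epcam at most 0.190 CPM and Elf5 no annotated read. Of 10 fibroblast markers 7 were tested. Col1a1, Col1a2 and Dcn passed through CD24+ cells alone, and the other 4, Pdgfra, Pdgfrb, Col3a1 and Twist2, were called higher in CD24+ cells. Their list summed to 16.8 to 34.4 CPM in CD24- libraries and 213 to 306 CPM in CD24+ libraries, with Lum and Thy1 at 0 in every library. Of 7 immune markers, Cd68 and Itgam (the latter passing through CD24- cells alone) were tested and called lower, with sums of 46.7 to 80.5 CPM against 7.17 to 9.44 CPM, while Ptprc was at 0 in all libraries but CD24+ replicate 3 (0.105 CPM). Of 11 basal mammary markers 3 were tested and Acta2, which passed through CD24+ cells alone, was called higher (log2 fold-change 3.87), with sums of 55.8 to 61.2 CPM against 49.2 to 65.5 CPM. Of 5 endothelial markers 2 were tested and Cdh5, which passed through CD24- cells alone, was called lower (log2 fold-change -3.23), from 15 to 24 reads per library in CD24- cells and 2 or 3 in CD24+ cells. Endothelial markers summed to at most 3.98 CPM and adipocyte markers to at most 0.282 CPM in any library.

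Vimentin was the most abundant of the 10 genes and number 5 among all genes of the series by reads. It had 3622, 3579 and 4453 CPM in CD24- cells and 4055, 4901 and 4167 CPM in CD24+ cells. CD24- replicate 3 lay above CD24+ replicates 1 and 3, so the groups overlapped. The log2 fold-change of 0.17 (SE 0.11 and adjusted p = 0.239, edgeR) did not pass the test, and it was -0.07 when each distinct sequence was counted once. Reads on the transcript started at 1383 positions in CD24+ replicate 1 (25437 reads) and at 1439 in CD24+ replicate 2 (85102 reads). The number of distinct sequences on the transcript thus hardly followed the number of reads. Without single libraries the log2 fold-change ranged from 0.07 (without CD24+ replicate 2) to 0.28 (without CD24- replicate 3, adjusted p = 0.0553, edgeR) and was not called in any of them.

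Nestin, which had few reads in CD24- cells, rose in CD24+ cells. It had 12.5, 11.8 and 12.8 CPM in CD24- cells, and 128, 137 and 140 CPM in CD24+ cells. The libraries within each group lay close together, and the level was 10.9-fold higher in CD24+ cells (log2 fold-change 3.45 with SE 0.09 and adjusted p = 4.2e-09, edgeR). The reads spanned chr3:87774971-87784364 on mm9 and came to 114 to 125 per library in CD24- cells and 814 to 2679 in CD24+ cells. They were spread over the transcript, with a log2 ratio of group means between 3.25 and 3.51 in each of 5 equal parts of its length. By median coverage with the regularizer of 10 the change was 0.92 (adjusted p = 2.53e-05, limma), from median coverages of 1 read in each CD24- library and 6, 17 and 19 reads in the CD24+ libraries.

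The lamins were abundant and differed less than the keratins or nestin. Lmna, the gene of lamins A and C, had 1103, 1084 and 1343 CPM in CD24- cells and 929, 1109 and 878 CPM in CD24+ cells. CD24+ replicate 2 lay among the CD24- values. The log2 fold-change was -0.27 (SE 0.11 and adjusted p = 0.0716, edgeR) with all libraries and -0.39 (adjusted p = 0.0174, edgeR) without CD24+ replicate 2, and -0.17 (adjusted p = 0.222, edgeR) without CD24- replicate 3. Lmnb1, which encodes lamin B1, had 327, 336 and 325 CPM in CD24- cells and 254, 326 and 282 CPM in CD24+ cells. CD24+ replicate 2 again lay among the CD24- values, and the log2 fold-change went from -0.19 (adjusted p = 0.120, edgeR) to -0.30 (adjusted p = 0.0160, edgeR) without it, and to -0.12 (adjusted p = 0.252, edgeR) without CD24+ replicate 1. This library also had the largest share of reads annotated to small or noncoding RNA, 3.93% against 1.22% to 2.10% in the others, and the part of this in the lamin values was not tested.

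Lamin A and lamin C arise from Lmna by alternative use of its 3′ end. Reads that only the lamin A transcript contains were 1799, 1815 and 1891 in CD24- cells and 1064, 3246 and 2892 in CD24+ cells, over 1128 start positions. Reads that only the lamin C transcript contains were 133, 153 and 161 in CD24- cells and 72, 273 and 209 in CD24+ cells, over 112 start positions. Per start position, lamin A was 57.3%, 54.1% and 53.8% of the sum in CD24- cells and 59.5%, 54.1% and 57.9% in CD24+ cells, so the groups overlapped. The means were 55.1% ± 1.94 and 57.2% ± 2.74 (SD, n = 3 each), and a 2-sided exact permutation test gave p = 0.2, where 3 libraries against 3 cannot go below 0.1. The lamin C reads lie in sequence that is intron for lamin A, so reads of unspliced RNA would be counted with them.

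Levels of different genes were compared as CPM per kb of the transcript. In CD24- cells the order of the means was Vim (1771), Krt8 (628), Krt18 (510), Lmna (373), Lmnb1 (116), Krt19 (7.69) and Nes (2.02 CPM per kb). No neighbours in that order overlapped between libraries. In CD24+ cells it was Vim (1995), Lmna (308), Krt8 (304), Krt18 (148), Lmnb1 (101), Nes (22.0) and Krt19 (2.04 CPM per kb). Lmna and Krt8 overlapped there, and no other neighbours did. With the Nlrp4e reads added, Krt8 came to 346 ± 36.4 CPM per kb (SD, n = 3) in CD24+ cells, above the mean of Lmna and still overlapping with it. Nestin thus stood below Krt19 in CD24- cells and above it in CD24+ cells, and vimentin stood first in both.

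**Figure D2:**
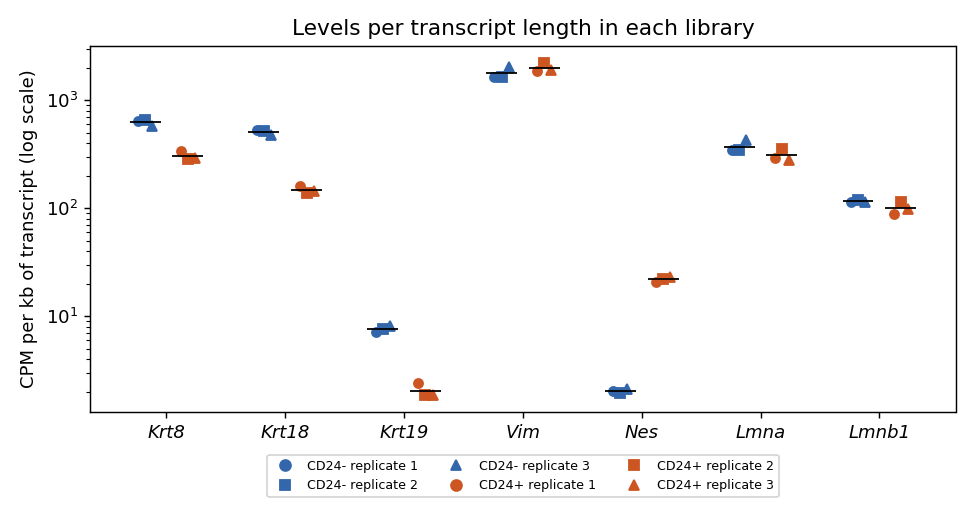
CPM per kb of transcript (log axis) of the 7 tested genes in each library, with a line at each group mean. Vim is highest in every library, Krt8 exceeds Lmna in the 3 CD24- libraries and overlaps with it in the CD24+ libraries, and Nes moves from below Krt19 to above it.

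The balance within the keratin pair and between keratin and vimentin was compared as ratios of these levels. The Krt8 levels leave out the reads annotated Nlrp4e. Bins 1, 2 and 3 of 20 along the Vim transcript held at most 0.0118% of its reads each, yet count in its length. The size of a ratio depends on the lengths used, whereas its difference between groups does not. Krt8 over Krt18 was 1.22, 1.27 and 1.21 in CD24- cells and 2.10, 2.04 and 2.01 in CD24+ cells. All CD24+ libraries had more Krt8 per Krt18 than all CD24- libraries. The mean log2 ratio differed by 0.74, and the 2-sided exact permutation test gave p = 0.1, the smallest it can give here. Krt8 over Vim was 0.390, 0.402 and 0.287 in CD24- cells and 0.184, 0.127 and 0.152 in CD24+ cells. Here all CD24+ libraries were lower, by 1.22 on the log2 scale of the mean ratio (2-sided exact permutation p = 0.1, again the smallest possible). Counting each distinct sequence once gave differences of 0.40 and -0.39, and in that count Krt8 itself was not called. Reads annotated Krt8 held 1431, 1441 and 1365 distinct sequences in CD24- replicates 1, 2 and 3. In CD24+ replicates 1, 2 and 3 they held 1086, 1399 and 1430. Start positions of all reads matching the Krt8 transcript, Nlrp4e reads included, numbered 1197 to 1471 per library, where 1544 positions lie within exons. Positions across exon junctions were not left out of those used. The part of this bound on distinct sequences in the smaller differences was not tested.

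**Figure D3:**
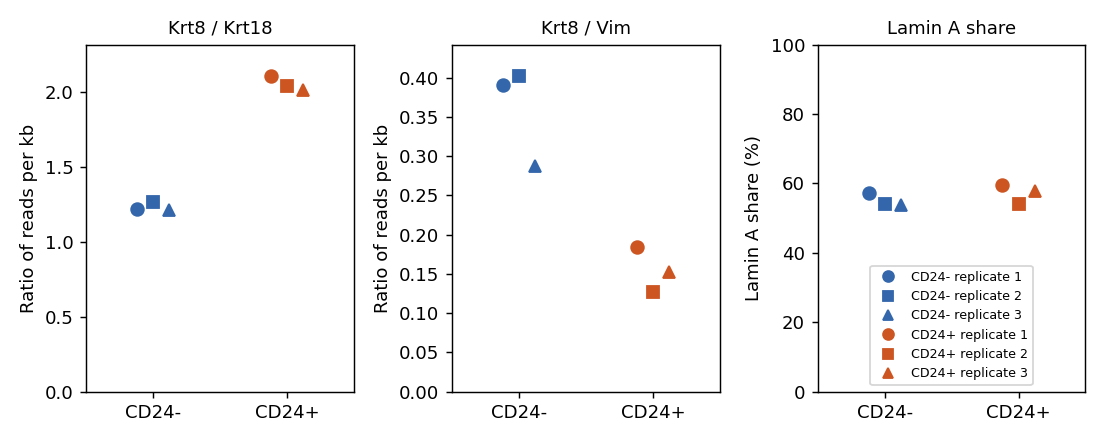
Ratio of CPM per kb of Krt8 to Krt18 and of Krt8 to Vim, and the lamin A share in percent, in each library. The Krt8 to Krt18 ratio goes from about 1.2 to about 2.0 and the Krt8 to Vim ratio falls, without overlap of the groups, while the lamin A shares overlap between 54.1% and 57.3%.

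The keratin changes ran along the whole transcripts. Krt8 here includes the matching reads annotated Nlrp4e. Over 5 equal parts of the transcript, the log2 ratio of group means was -0.95 to -1.11 for Krt8 and -1.74 to -1.81 for Krt18, and the groups did not overlap in any part of either gene. For Krt19 it was less even, -1.49 to -3.21, from 50 to 123 reads in a part over all libraries, again without overlap. For Vim it was 0.05 to 0.19, with overlap in every part. The share of reads in the 3′ part of the transcript, beyond its midpoint, was 52.7% to 54.8% for Krt8 and 50.7% to 53.7% for Krt18 over all libraries. For Lmna it was 28.4% to 30.1%, in a region of which a part belongs to the lamin A transcript alone.

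**Figure D4:**
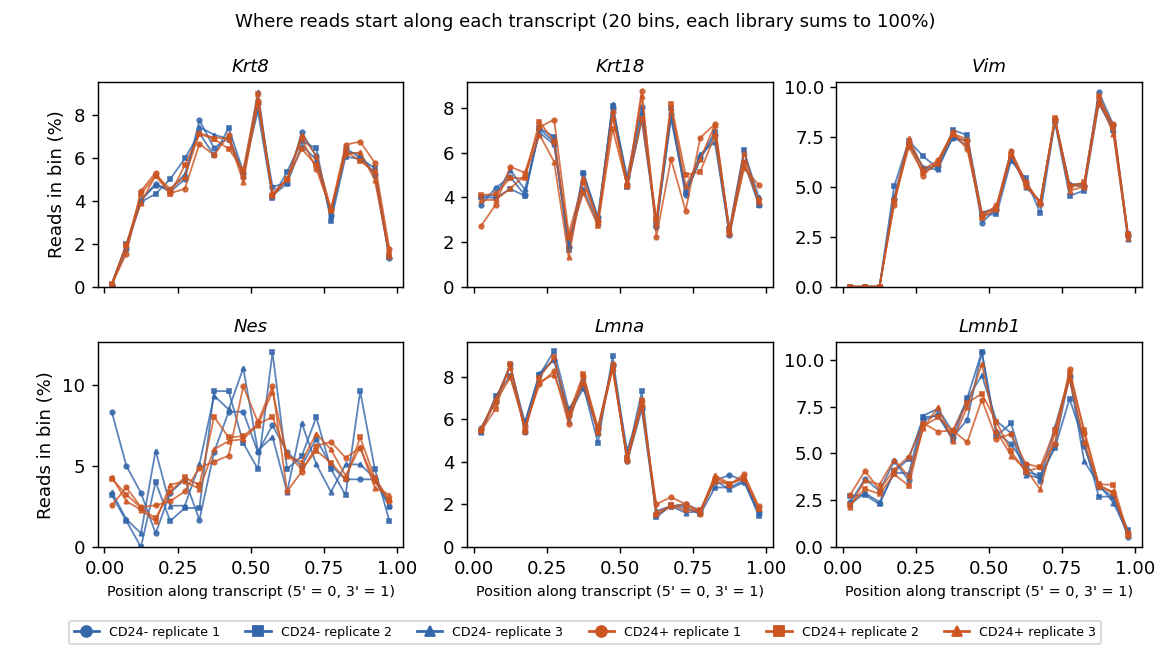
Share of a library's reads that start in each of 20 bins along the transcript, from 5′ to 3′, for Krt8, Krt18, Vim, Nes, Lmna and Lmnb1, with a line per library. Blue CD24- and orange CD24+ lines run together for each gene, with the widest scatter for Nes in CD24- cells, where each library had 118 to 125 reads on the transcript.

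Among 60 other intermediate filament genes, 31 had annotated reads and 8 passed the filter. Of the 8, 4 passed through 1 group alone, with less than 1 CPM in a library of the other: Krt13, Krt27 and Bfsp1 through CD24- cells and Sync through CD24+ cells. A filter passed in this way favours genes that differ between groups, so nothing is read from a count or median over all 8. Of the 4 with at least 1 CPM in all 6 libraries, which are Krt10, Krt80, Synm and Lmnb2, only Krt80 was called, as lower, beside 43.9% called among all 10328 such genes. Krt80, an epithelial type II keratin, had 67.8, 66.3 and 69.5 CPM in CD24- cells and 51.6, 30.3 and 41.3 CPM in CD24+ cells, with no overlap (-0.75 on the log2 scale, adjusted p = 0.00334, edgeR). Krt13, Krt27 and Bfsp1 were at a few CPM in CD24- cells and were also called lower. Krt13, a keratin of stratified mucosa, went from 2.28 ± 0.709 to 0.364 ± 0.236 CPM (SD, n = 3 each) and Krt27, a hair sheath keratin, from 2.84 ± 0.300 to 0.356 ± 0.102 CPM. Bfsp1, a lens filament gene, went from 2.23 ± 0.533 to 0.552 ± 0.0911 CPM. Sync, the gene of syncoilin, which passed through CD24+ cells, was called higher (log2 fold-change 1.52 with SE 0.45 and adjusted p = 0.0172, edgeR), but not without CD24+ replicate 1 (adjusted p = 0.0540) or without CD24+ replicate 3 (adjusted p = 0.0509). Lmnb2, the gene of lamin B2, had a log2 fold-change of -0.14 at 82.1 and 74.4 CPM in the group means (-0.26 to -0.07 without single libraries), and it was not called. Neither were Krt10 (0.35, and 0.16 to 0.56 without single libraries) and Synm (0.30, and 0.21 to 0.36), both at a few CPM.

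Genes that anchor filaments to junctions and to other cytoskeletal systems were mixed. Of 13 linker genes 9 were tested, and 7 of these had at least 1 CPM in all 6 libraries, of which 3 were called lower and 1 higher (57.1% called, beside 43.9% of all such genes). Their median log2 fold-change was -0.36, against 0.005 over all such genes. Evpl, encoding envoplakin, passed the filter through CD24- cells alone and had 6.52, 6.35 and 5.86 CPM in CD24- cells and 0.472, 0.903 and 0.786 CPM in CD24+ cells (-2.99 on the log2 scale). Itga6, an integrin subunit of hemidesmosomes, had 213, 209 and 276 CPM in CD24- cells and 61.0, 75.7 and 58.7 CPM in CD24+ cells (-1.83, adjusted p = 2.42e-06, edgeR). The groups did not overlap for Evpl or Itga6. Itgb4, the other integrin subunit of the list, passed the filter through CD24- cells alone. It had only 1.37 CPM in CD24- and 1.23 CPM in CD24+ cells in the group means (-0.21, adjusted p = 0.611, edgeR). Col17a1, on the same list, had 6 reads over all libraries. Fam83h, whose product associates with keratin filaments, was lower by a smaller amount (-0.68), as was Ppl, encoding periplakin (-0.37), whereas Eppk1, encoding epiplakin, was higher (1.24). Plec, the gene of plectin, had 1227, 1222 and 1746 CPM in CD24- cells and 897, 1292 and 1082 CPM in CD24+ cells, which overlapped (-0.36, adjusted p = 0.105, edgeR).

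Dsp, the gene of desmoplakin that ties keratins to desmosomes, has no annotation in the deposited tables, so it is outside the count of 9. Its reads were found among all reads of a library by exact match to its GENCODE M21 transcripts. The annotation that these reads carry was not looked up. They numbered 8470, 9226 and 10431 in CD24- cells and 220, 646 and 632 in CD24+ cells, which is 891, 874 and 1175 CPM against 34.6, 36.5 and 33.1 CPM. Every CD24+ library was far below every CD24- library. Counted on reads that match a single reference gene, where 45.9% of 12116 genes were called, Dsp was 28.7-fold lower in CD24+ cells (log2 fold-change -4.84 with SE 0.14 and adjusted p = 3.16e-09, edgeR). Macf1, a linker of actin and microtubules, was likewise without annotation and had 556 ± 46.4 and 544 ± 43.3 CPM (SD, n = 3 each), and its change of -0.05 (log2) was not called (adjusted p = 0.679, edgeR).

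Of 18 partners of the nuclear lamina 16 were tested, 3 were higher and 6 were lower, with a median log2 fold-change of 0.05. All 16 had at least 1 CPM in all 6 libraries, and 56.2% of them were called beside 43.9% of all such genes, so their count is near the background. Icmt, which methylates the processed end of prenylated lamins, had 58.1, 57.1 and 65.4 CPM in CD24- cells and 110, 116 and 112 CPM in CD24+ cells (0.91 on the log2 scale, adjusted p = 1.03e-05, edgeR). Sun2 and Sun1, inner members of the bridge from the lamina to the cytoskeleton, moved in opposite directions (0.63, adjusted p = 5.57e-05, and -0.38, adjusted p = 0.00367, edgeR). The outer members Syne2 and Syne1, the genes of nesprins, were both lower, Syne2 from 199, 184 and 223 to 84.2, 96.3 and 106 CPM, and Syne1 from 142, 131 and 112 to 71.4, 83.5 and 94.8 CPM. Lbr, the lamin B receptor, was lower (-0.39) and Emd, encoding emerin, was higher (0.37), though it was not called without CD24- replicate 1 (adjusted p = 0.0593, edgeR), with distinct sequences counted once (0.280, edgeR) or by median coverage (0.107, limma). Zmpste24, the protease that trims prelamin A, had a log2 fold-change of 0.05 and was not called, and neither were Fnta and Fntb, the subunits of the enzyme that farnesylates lamins (-0.14 and 0.05). Syne3, without annotation in the tables, had 112 ± 11.7 and 79.3 ± 4.83 CPM (SD, n = 3 each) by exact transcript match and was lower by 0.52 on the log2 scale (adjusted p = 0.00120, edgeR on reads that match a single reference gene).

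**Figure D5:**
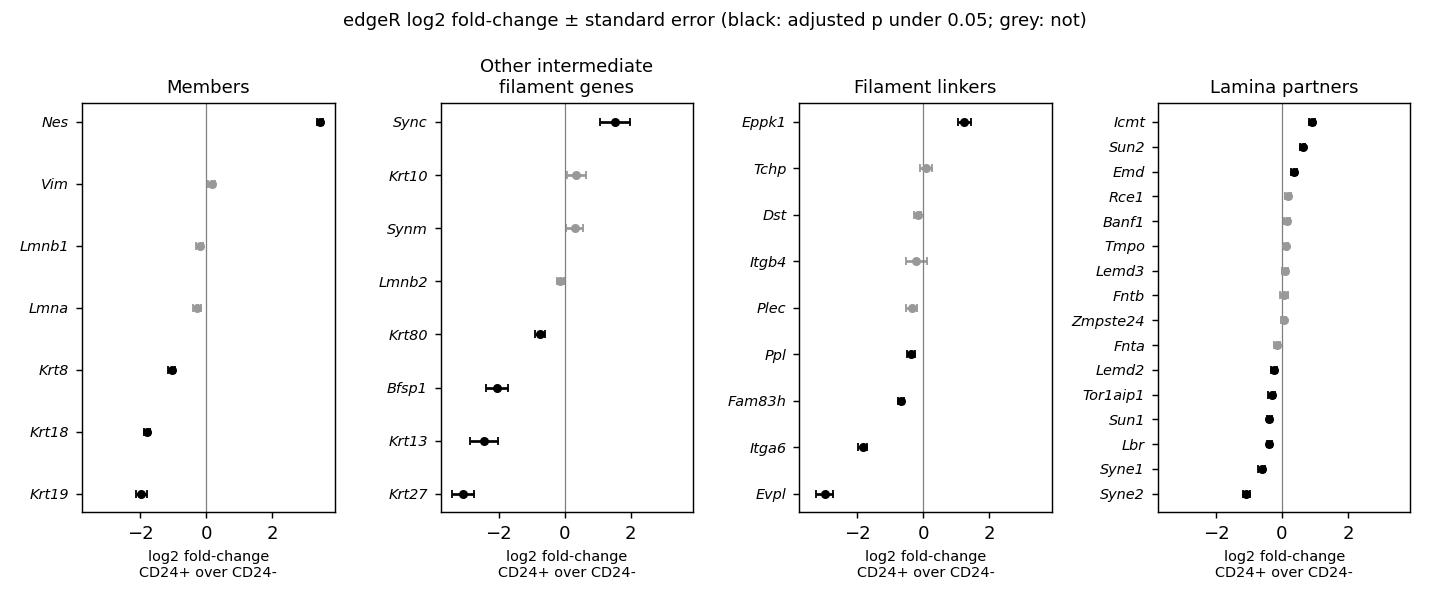
Log2 fold-change, CD24+ over CD24-, with its standard error from edgeR for the 7 tested members, 8 other intermediate filament genes, 9 linker genes and 16 lamina partners. Black points have an adjusted p under 0.05 and grey points do not, with Nes at 3.45 furthest to the right and Krt27 at -3.08 furthest to the left.

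The genes most alike each member in log2 CPM over the 6 libraries were looked up among 6393 genes whose mean log2 CPM reached 5. For Krt8, Krt18, Krt19 and Nes the 6 points fall into the 2 sorted groups, so a high correlation mostly restates the group difference. For Vim, Lmna and Lmnb1 the groups overlapped, and the values given are the highest of 6393 correlations over 6 points. For Krt8 the genes most alike were Cd276, an immune checkpoint gene, and Nlrp4e, whose reads nearly all match the Krt8 transcript (Pearson's r 0.999 for both). For Krt18 they were Man1a and 1300014I06Rik (0.999 for both), and for Krt19 Tgfa, an EGF receptor ligand, and Tgoln1 (0.999 and 0.997). For Nes they were Sec14l1 (0.9997) and Aqp1, a water channel gene (0.9995). Aqp1 had a log2 fold-change of 3.56, close in size to the 3.45 of Nes, whereas that of Sec14l1 was 1.08. For Vim they were Cpsf2 and Ccdc25 (0.996 and 0.995), for Lmna E430028B21Rik and Elavl1 (0.995 and 0.990), and for Lmnb1 Nfic and Wdhd1 (0.994 for both).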

How the data were processed

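Single-end reads were cut by the authors to 47 nt, duplicates were merged with their number kept, and each sequence was placed on the genome by exact match, with 1 location and annotation. They deposited raw counts per sequence and library, neither normalized nor pooled. The submitters' processing notes name mm9; for the mapping tool and annotation source, the name is not given in the sources used. Exact mapping loses junction reads and reads over FVB/N variants, and the library kit marks no strand, so a gene and its antisense partner cannot be told apart. Counts were summed per annotation, leaving out repeats, noncoding RNA and unannotated reads (16.9% to 20.2% of a library). Genes passing filterByExpr were tested with edgeR 4.0.16 (TMM, robust quasi-likelihood F test, Benjamini-Hochberg, threshold 0.05) in R 4.3.3. CPM used TMM-scaled gene reads. Alternatives used DESeq2 1.42.0, limma 3.58.1 (median coverage, quantile normalization, regularizer 10), other filters, scalings and counts, a replicate block and each library left out. Reads were matched exactly to GENCODE M21 transcripts, with 1 transcript per gene for lengths and start positions. Scripts were tested on simulated data.

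Libraries of a group differed by more than sampling noise. The chi-square per degree of freedom was 1.71 between CD24- replicates 1 and 2, and 9.33 to 15.2 between the other pairs within a group. CD24- replicates 1 and 2 were thus more alike than any other pair, and the spread between CD24- plates rests largely on replicate 3. Plates with the same number did not deviate together (correlations 0.01, -0.28 and -0.33), so the numbers were not used as pairs. Genes named are the 10 members, every other intermediate filament gene tested, the 3 called linker and lamina genes with the largest change in each direction, the 2 genes most alike each member and Cd24a. Sun1, Ppl, Plec, Itgb4, Col17a1, Zmpste24, Fnta, Fntb, the unannotated Dsp, Macf1 and Syne3, and the marker genes were named besides these after their values were seen. Members, lists and this rule were chosen with earlier results of these data known. Counts over genes with at least 1 CPM in all 6 libraries were added after seeing the data. Log2 CPM for correlations had a pseudocount of 1. Of 14770 gene annotations, 12446 are current symbols, and a further 1957 could be traced to 1 gene by synonym.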

Additional observations from a re-analysis of the deposited data

Results flagged for a closer look

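Signals not counted under the gene's own name were found for 4 items. Dsp, a gene without annotation in the tables, reached a mean of 980 CPM in CD24- cells by exact transcript match, against 34.7 in CD24+ cells. Macf1 and Syne3, likewise without annotation as genes, reached 556 and 112 CPM in CD24- cells by the same match. Reads that match the Krt8 transcript but are annotated Nlrp4e came to 8277 over all libraries. With 3 libraries per group, single outlying values were not tested.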

How the results depend on the processing

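Krt18, Krt19 and Nes kept their direction and their call under every alternative run, but not their size: by median coverage with limma Nes was 0.92 and Krt19 -0.49, where a regularizer of 10 is added to coverages of few reads, and counting each distinct sequence once gave Krt18 -0.88. For abundant genes a count of distinct sequences is bounded by the number of possible ones. This count gave Krt8 -0.46 (adjusted p = 0.0735, edgeR), Vim -0.0737 (adjusted p = 0.780, edgeR), a Krt8 to Krt18 difference of 0.40 and a Krt8 to Vim difference of -0.39. It also moved the share of higher genes among all called genes from 51.7% to 58.1%. Lmna passed the threshold with DESeq2 (-0.29, adjusted p = 0.0360) and with all mapped reads without TMM (-0.31, adjusted p = 0.0420, edgeR), and the cause was not tested. Without single libraries, Lmna ranged from -0.39 to -0.17 and Lmnb1 from -0.30 to -0.12, and both passed only without CD24+ replicate 2 (adjusted p = 0.0174 and 0.0160, edgeR). Other intermediate filament genes called numbered 5 of 8. Nothing is read from this count because 4 of the 5 passed the filter through 1 group alone. It was 10 without a filter, 3 after thinning to the shallowest library and 1 by median coverage with limma. Among all genes, 5392 of 14770, 4656 of 10802 and 3655 of 13574 were called in these 3 settings, against 5134 of 11125 in the main test. Linker genes called numbered 5, of which Evpl passed the filter through CD24- cells alone, and 4 to 6 without single libraries. By median coverage 3 were called, where fewer of all genes were called too (3655 of 13574, against 5134 of 11125). Changes by median coverage were also smaller for Cd24a (1.37), Krt80 (-0.49), Fam83h (-0.25), Icmt (0.46) and Syne2 (-0.24), each still called. With the replicate block the log2 fold-changes were -1.05 for Krt8, -1.78 for Krt18, -1.95 for Krt19, 0.17 for Vim, 3.44 for Nes, -0.28 for Lmna and -0.20 for Lmnb1, and no call of a member changed. With this block 8 instead of 9 lamina partners were called, beside 4511 instead of 5134 of all 11125 genes. Without single libraries 7 to 9 lamina partners were called, beside 4097 to 5360 of all genes. Of 191 alternative values of main results 179 kept direction and call or size. Some of these could not have come out otherwise. The filter of at least 1 CPM in 3 libraries kept as many genes as the main test, 11125, and gave the same 5134 calls. Other transcript lengths cannot change the difference of a log2 ratio between groups, and the replicate block leaves the mean difference of a ratio or share as it was. Krt5, Krt7 and Krt14 were not tested, so no alternative applies to them.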
